A study of Mus musculus with 22 samples.

Results

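Synovial sarcoma is a soft tissue cancer defined by the fusion protein SS18-SSX, and this comparison asked how tumours with SS18-SSX differed from tumours that carried SS18-SSX and had also lost Smarcb1, an older name for which is Snf5. The libraries were chosen by their titles alone: 4 tumours with both lesions (titles with Snf5, SSM2 and Myf5Cre, genotype label Myf5cre;SS18-SSX+/- and Snf5-/-, called combined here, N1 to N4) and 3 tumours with the fusion alone (titles with Myf5 and SSM2, genotype label SS18-SSX+/-, called SS18-SSX here, N381, N428 and N460), 7 of the 22 libraries of the series. The labels do not define SSM2. The genotype label of all 7 tumours includes SS18-SSX+/-, so the fusion is common to both groups, and the titles of both groups name Myf5, the gene whose promoter drives Cre recombinase in muscle progenitors in Myf5Cre mice. The source is given as mouse tumour, fresh frozen, and the strain as C57BL/6 for SS18-SSX N381 and as C57BL/ with another number for each other library. Age, sex and body site are not in the labels used here.

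The descriptions give the SS18-SSX libraries 1 number series and the combined libraries another. The number series followed the genotype without exception, so what either contributes to any difference below cannot be told apart. The labels do not state that the libraries are from different animals. The p-values therefore reflect how these 7 samples vary, and some of that variation may be technical.

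Smarcb1 is a core subunit of the SWI/SNF complex, also called BAF, which uses ATP to move nucleosomes and keeps enhancers and promoters accessible. SS18 is itself a BAF subunit, so the fusion protein takes the place of SS18 in the complex, and assembly of the fusion is known to weaken the hold of Smarcb1. Loss of Smarcb1 on its own is the defining lesion of malignant rhabdoid tumours. Polycomb complexes, which place repressive marks on histones, are the classical opponents of SWI/SNF.

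Total counts were 17067570 to 25177722 in the SS18-SSX libraries and 14834030 to 16716639 in the combined libraries. Over all genes tested, Pearson's r of log2 CPM was 0.908 to 0.981 between combined libraries, 0.838 to 0.916 between SS18-SSX libraries and 0.662 to 0.865 across the groups, as a description across genes. Several library-wide measures differed between the groups or between single libraries. Among protein coding genes, 25.1% of the fifth with the shortest exon length were higher in combined tumours and 7.86% lower, against 4.63% higher and 23.6% lower in the fifth with the longest. RNAs that lack a poly(A) tail summed to 32540, 23240 and 30180 CPM in SS18-SSX and to 28990, 114400, 112400 and 66930 CPM in combined libraries. Their mean log2 CPM was 4.46, 4.08 and 4.49 in SS18-SSX and 5.63, 7.08, 7.53 and 7.1 in combined libraries. Of 19 tested, 11 were higher (57.9%) and 0 lower, against 13.1% and 14.3% over all genes, with a median log2 fold change of 2.56. With the exon length trend taken out, 5 were higher and 2 lower. Counts of Ddx3y, a Y-linked gene, were 0.107, 0.0472 and 0 CPM in SS18-SSX and 0.797, 157, 217 and 209 CPM in combined libraries, so combined N2, N3 and N4 held most of its RNA. Xist, the RNA of the inactive X chromosome, was at 3762, 931 and 962 CPM in SS18-SSX and 1753, 293, 0.639 and 3.71 CPM in combined libraries. SS18-SSX N381 stood apart by skeletal muscle RNA: 29 mature muscle genes summed to 21270, 490.3 and 1193 CPM in SS18-SSX and 1490, 1081, 1232 and 1636 CPM in combined libraries. What these measures contribute to the results below was not tested, apart from a fit with the exon length trend taken out and fits without each library.

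With edgeR's quasi-likelihood test on the counts, 2152 of 16456 genes were higher in combined tumours at an adjusted p below 0.05 (13.1%) and 2346 were lower (14.3%). Of the 4498 called genes, 4269 had levels that did not overlap between the 3 and the 4 libraries. Among all 16456 genes tested, 3178 (19.3%) had every combined library over every SS18-SSX library and 3198 (19.4%) had every one under, so a gap between the groups was common with these libraries. Across all genes tested, log2 fold changes had a median of -0.13. The 2 called shares and this median are the background against which the counts in each gene list are read. With the exon length trend of each library taken out, a fit chosen after seeing the data, 2194 genes were higher and 2147 lower. Leaving out 1 library lowered the counts to 894 higher and 1061 lower without combined N4, 1068 and 1296 without N3, and 1285 and 1510 without N2. They also fell, to 1432 and 1859 without SS18-SSX N381, 1604 and 2016 without N428, and 1594 and 2080 without N460. Without combined N1 the counts rose to 2453 higher and 2429 lower.

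Smarcb1 RNA (mouse chromosome 10, 75896769 to 75921617, minus strand, GRCm38) was the check of the genotype labels. Levels are given below in CPM (counts scaled to library size, with TMM factors), in the order N381, N428 and N460 for SS18-SSX tumours and N1, N2, N3 and N4 for combined tumours. They were 51, 81.1 and 66.4 CPM in SS18-SSX and 0.968, 2.5, 2.56 and 1.66 CPM in combined tumours. Every combined library was far below every SS18-SSX library, and the fall was log2 fold change -5.11 ± 0.40 (SE), adjusted p = 0.00101. In bulk tissue, fewer cells with a transcript and less transcript per cell cannot be told apart, here and below. Ss18, the mouse gene, was at 107, 175 and 176 CPM in SS18-SSX and 137, 156, 188 and 157 CPM in combined tumours, and the groups overlapped (log2 fold change 0.06 ± 0.24 (SE), adjusted p = 0.866). Whether reads of the fusion were counted in Ss18 was not tested.

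Of 29 BAF subunit genes tested, 1 was higher (3.4%) and 6 were lower (20.7%) in combined tumours, against 13.1% and 14.3% over all genes. Smarcb1, whose loss the genotype label states, is 1 of those 6. The list had a median log2 fold change of -0.38, or 0.06 with the exon length trend taken out. Smarca2, which encodes BRM, one of the 2 alternative ATPases of the complex, was at 369, 375 and 398 CPM in SS18-SSX and 134, 110.4, 91.3 and 103 CPM in combined tumours. It fell in every combined library (log2 fold change -1.80 ± 0.21 (SE), adjusted p = 0.0039), and by 1.15 with the exon length trend taken out. Smarca4, the other ATPase (BRG1), was at 229, 302 and 293 CPM in SS18-SSX and 358, 236, 262 and 327 CPM in combined tumours, and the groups overlapped. Its log2 fold change was 0.11 ± 0.24 (SE). Arid1a, the largest subunit of canonical BAF, also overlapped between groups (log2 fold change -0.45 ± 0.36 (SE), adjusted p = 0.375). Lower in combined tumours were Smarcc2, a scaffold subunit (log2 fold change -1.34 ± 0.31 (SE), adjusted p = 0.019), Bcl11a (log2 fold change -3.44 ± 1.09 (SE), adjusted p = 0.0477), Ss18l1, the paralog of Ss18 (log2 fold change -1.54 ± 0.43 (SE), adjusted p = 0.0332), and Bicral, a subunit of the non-canonical GBAF complex (log2 fold change -1.50 ± 0.36 (SE), adjusted p = 0.0199). Actl6a, the actin-like subunit of proliferating cells, was the 1 subunit that rose (log2 fold change 1.68 ± 0.45 (SE), adjusted p = 0.0277). Smarcb1 and Smarca2 held in every fit without 1 library. Smarcc2 was not called without combined N4 (adjusted p = 0.0587). Bcl11a was not called without SS18-SSX N381, N428 or N460 or combined N2, N3 or N4, or with the exon length trend taken out (adjusted p = 0.0548 to 0.1). Ss18l1 was not called without SS18-SSX N428 or N460 or combined N2, N3 or N4 (adjusted p = 0.052 to 0.0959). Bicral was not called without SS18-SSX N381 or N460 or combined N2 or N4 (adjusted p = 0.0524 to 0.0588). Actl6a was not called without SS18-SSX N381 or N460 or combined N2, N3 or N4 (adjusted p = 0.0502 to 0.0664). Leaving out 1 library gave 0 to 2 higher (0 without SS18-SSX N381 or combined N2, N3 or N4, 2 without SS18-SSX N460) and 2 to 7 lower (2 without combined N4, 3 without SS18-SSX N460 or combined N2).

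**Figure D1:**
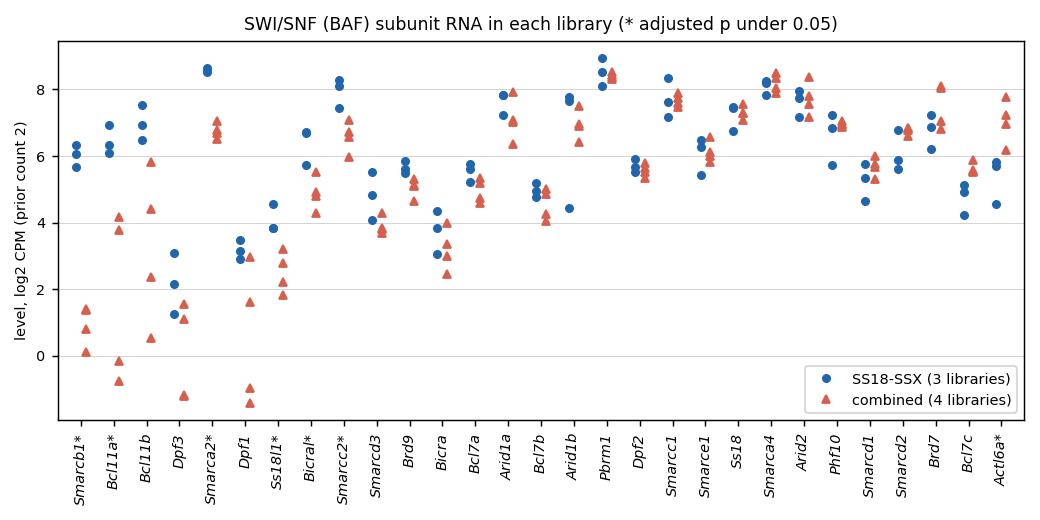
RNA level of 29 SWI/SNF (BAF) subunit genes on a log2 CPM scale in each library, ordered by log2 fold change (circles, 3 SS18-SSX libraries; triangles, 4 combined libraries; star, adjusted p below 0.05). Smarcb1 at the left shows the widest gap between groups, with log2 fold change -5.11, while most subunits overlap.

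Of 33 Polycomb genes tested, 3 were higher and 5 lower in combined tumours (9.1% and 15.2%), close to the shares over all genes. Rbbp4, a histone-binding subunit shared by several chromatin complexes, was at 107, 162 and 205 CPM in SS18-SSX and 329.9, 610, 869 and 598 CPM in combined tumours (log2 fold change 1.93 ± 0.40 (SE), adjusted p = 0.0128). Eed, which reads the mark of PRC2, and Bmi1, a PRC1 subunit, were also higher (log2 fold change 1.09 ± 0.31 (SE), adjusted p = 0.0359 and log2 fold change 1.59 ± 0.46 (SE), adjusted p = 0.0362). The PRC2 accessory subunit Phf1 was at 36.5, 36.6 and 30.3 CPM in SS18-SSX and 17.9, 15.5, 11.3 and 14.6 CPM in combined tumours (log2 fold change -1.22 ± 0.25 (SE), adjusted p = 0.0128). Also lower were Bcorl1 (-1.91 ± 0.46), Cbx7 (-1.85 ± 0.57), Ezh1 (-1.57 ± 0.46) and Aebp2 (-1.23 ± 0.31), on the log2 scale with SE. Cbx7 and Ezh1 overlapped between groups. For them combined N1 was at 19.7 and 34.9 CPM, over SS18-SSX N460 at 13.9 and 34.6 CPM. The catalytic subunit Ezh2 was at 36.5, 131 and 68.8 CPM in SS18-SSX and 62.9, 74.6, 76.1 and 67.2 CPM in combined tumours, with overlapping groups (log2 fold change -0.16 ± 0.38 (SE), adjusted p = 0.761). Rbbp4 and Phf1 held without each library. Eed was not called without SS18-SSX N381, N428 or N460 or combined N2, N3 or N4, or with limma-voom (adjusted p = 0.0507 to 0.0889). Bmi1 was not called without SS18-SSX N460 or combined N2, N3 or N4 (adjusted p = 0.0579 to 0.0811). Bcorl1 was not called without combined N2 or N4 (adjusted p = 0.0501 to 0.0583). Cbx7 was not called without SS18-SSX N381 or N428 or combined N2, N3 or N4, or with limma-voom, or with the exon length trend taken out (adjusted p = 0.0548 to 0.128). Ezh1 was not called without SS18-SSX N381 or N428 or combined N2, N3 or N4, or with the exon length trend taken out (adjusted p = 0.051 to 0.114). Aebp2 was not called without SS18-SSX N428 or combined N2, N3 or N4, or with the exon length trend taken out (adjusted p = 0.0531 to 0.11). The log2 fold change of Aebp2 was -0.75 without SS18-SSX N428. Fits without 1 library gave 1 to 3 higher (1 without combined N2, N3 or N4) and 1 to 7 lower (1 without combined N2 or N4, 2 without SS18-SSX N428 or combined N3). With the length trend taken out, 5 Polycomb genes were higher and 2 lower.

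Genes listed as associated with synovial sarcoma were more often lower than higher in combined tumours: 10 of 32 were lower (31.2%) and 4 were higher (12.5%), with a median of -0.73. Nkx2-2, a neural transcription factor, was at 3.86, 14.3 and 7.62 CPM in SS18-SSX and 0.911, 0.449, 0.160 and 0.464 CPM in combined tumours (log2 fold change -4.08 ± 0.71 (SE), adjusted p = 0.00846). Zic2, another neural transcription factor, was at 98.6, 534 and 356 CPM in SS18-SSX and 50.1, 49.1, 34.6 and 44 CPM in combined tumours (log2 fold change -2.89 ± 0.50 (SE), adjusted p = 0.00825). Bcl2, the anti-apoptotic gene by which synovial sarcoma is often stained, was at 37.3, 46.4 and 55.5 CPM in SS18-SSX and 16, 9.05, 6.07 and 8.87 CPM in combined tumours (log2 fold change -2.21 ± 0.36 (SE), adjusted p = 0.00694). The groups did not overlap for any of these. Fzd10, a Wnt receptor raised in human synovial sarcoma, was at 60.5, 146 and 174 CPM in SS18-SSX and 23.7, 16.5, 4.79 and 7.02 CPM in combined tumours (log2 fold change -3.28 ± 0.60 (SE), adjusted p = 0.00996). Tle1, a corepressor used as a diagnostic marker, was at 258, 379 and 426 CPM in SS18-SSX and 227, 214, 228 and 201 CPM in combined tumours. Every combined library lay under every SS18-SSX library, but Tle1 did not pass the threshold (log2 fold change -0.71 ± 0.23 (SE), adjusted p = 0.0554). Sox9, a cartilage and stem cell factor, fell by 3.29 on the log2 scale, the ephrin ligand Efnb3 by 3.45 and the receptor Erbb2 by 1.89. Meox2, a homeobox gene of the somite, rose (log2 fold change 4.20 ± 1.02 (SE), adjusted p = 0.0211) from 19.4, 1.18 and 12.6 CPM in SS18-SSX to 39.5, 245, 290.1 and 236 CPM in combined tumours. The growth factor gene Igf2 was also higher (log2 fold change 2.7 ± 0.64 (SE), adjusted p = 0.0196), and 61.2% of its 50-base stretches occur in another annotated gene. Sox9 was not called without SS18-SSX N460 or combined N4 (adjusted p = 0.051 to 0.0563). Efnb3 was not called without SS18-SSX N428 or combined N4 (adjusted p = 0.0501 to 0.0505). Erbb2 was not called without SS18-SSX N381, N428 or N460 or combined N2, N3 or N4 (adjusted p = 0.0536 to 0.08). Meox2 was not called without SS18-SSX N460 or combined N4 (adjusted p = 0.0504 to 0.054). Igf2 was not called without SS18-SSX N460 or combined N4 (adjusted p = 0.0503 to 0.0515). Without 1 library at a time, 0 to 4 higher (0 without combined N4, 2 without SS18-SSX N381 or N460 or combined N3) and 5 to 12 lower (5 without combined N4, 6 without SS18-SSX N460) genes were called.

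Some homeobox and other developmental transcription factors rose in combined tumours while others fell. Of 72 such genes outside the Hox clusters, 15 were lower (20.8%) and 7 higher (9.7%), with a median of -1.47. Lhx3, a LIM homeobox gene of motor neurons and pituitary, was at 1.13, 0.0944 and 0.589 CPM in SS18-SSX and 38.4, 102, 21.6 and 81.1 CPM in combined tumours (log2 fold change 6.65 ± 0.93 (SE), adjusted p = 0.00532). Sim2 was at 3.11, 0.0944 and 1.34 CPM in SS18-SSX and 69.3, 36.2, 184 and 189 CPM in combined tumours (log2 fold change 6.31 ± 1.12 (SE), adjusted p = 0.00916). For both genes the lowest combined library was over every SS18-SSX library. Olig2, a factor of the oligodendrocyte lineage, rose too (log2 fold change 4.22 ± 0.91 (SE), adjusted p = 0.0147).

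In the other direction, Msx2, a homeobox gene downstream of Bmp signals, was at 39.6, 21.8 and 38.9 CPM in SS18-SSX and 0.285, 0.577, 0.319 and 0.0662 CPM in combined tumours (log2 fold change -6.71 ± 0.61 (SE), adjusted p = 0.00182). Irx2 was at 47.6, 152 and 47 CPM in SS18-SSX and 2.05, 1.03, 0.0799 and 0 CPM in combined tumours (log2 fold change -6.65 ± 1.14 (SE), adjusted p = 0.00817). En2, a midbrain and hindbrain gene, was at 39, 66.3 and 0.943 CPM in SS18-SSX and 0.399, 0.193, 0.0799 and 0.199 CPM in combined tumours (log2 fold change -7.26 ± 1.28 (SE), adjusted p = 0.00895). SS18-SSX N460 was close to the combined libraries for En2, which limma-voom did not call (adjusted p = 0.129). Foxa2, a pioneer factor of endoderm and floor plate, fell by 7.22 on the log2 scale, or by 4.64 without SS18-SSX N428, the library with most of it (1.61, 41.1 and 3.54 CPM in SS18-SSX libraries). The levels within the combined group also varied. Irx2, for example, ran from 0 in N4 to 2.05 CPM in N1. Removing single libraries gave 4 to 7 higher (4 without combined N3 or N4) and 11 to 15 lower.

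Among 28 Hox genes tested, 3 were higher and 3 lower (10.7% each). Other Hox genes did not have enough counts in several libraries and were not tested. Of these, Hoxc9, Hoxc10 and Hoxc11 had 758 of 776, 600 of 610 and 595 of 604 counts in SS18-SSX N381. Hoxd12 and Hoxd3 had 163 of 197 and 152 of 181 counts in SS18-SSX N460. Hoxa2, a gene of hindbrain patterning, was at 0.858, 0.944 and 0.746 CPM in SS18-SSX and 4.38, 6.42, 24 and 20.9 CPM in combined tumours (log2 fold change 4.02 ± 0.74 (SE), adjusted p = 0.01). It was higher in N3 and N4 than in N1 and N2, yet no combined library overlapped the SS18-SSX group. The posterior gene Hoxd13 was lower (log2 fold change -5.32 ± 1.47 (SE), adjusted p = 0.0319). Hoxd13 was not called without SS18-SSX N460 or combined N1, N3 or N4 (adjusted p = 0.0611 to 0.107). Its log2 fold change was -3.12 without SS18-SSX N460. When 1 library was dropped, the counts were 2 to 4 higher and 0 to 3 lower (0 without combined N1, N3 or N4, 1 without SS18-SSX N381).

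Of the early muscle lineage genes, 4 of 22 were higher (18.2%) and 1 lower (4.5%), with a median of -0.24. Without SS18-SSX N381, the library with the most muscle RNA, 8 were higher and the median was 2.09, and with limma-voom the median was 1.34. The median was also above 0 without combined N1 (0.40) or N2 (0.22). Myf5 itself, Myod1, Myog and Chrnd did not pass the count filter, which asks for enough counts in several libraries, and were not tested. Myf5 had 8, 0 and 1 counts in the SS18-SSX libraries and 326, 148, 0 and 4 in the combined libraries, so nearly all were in N1 and N2. Of the 326 counts of Myog over the 7 libraries, 296 were in SS18-SSX N381, as were 84 of the 110 of Chrnd and 37 of the 59 of Myod1. Lbx1, a homeobox gene of migrating muscle precursors, was at 2.09, 5.19 and 3.26 CPM in SS18-SSX and 24.3, 54.6, 74.7 and 65.1 CPM in combined tumours (log2 fold change 3.96 ± 0.51 (SE), adjusted p = 0.00457). Msc (musculin), a bHLH repressor of head muscle and some trunk precursors, was at 5.47, 0.755 and 2.2 CPM in SS18-SSX and 45.3, 32.7, 22 and 19.1 CPM in combined tumours (log2 fold change 3.41 ± 0.69 (SE), adjusted p = 0.0124). Met, the receptor needed for the same precursors to migrate, went the other way, with 129, 40.1 and 77.2 CPM in SS18-SSX and 7.63, 9.11, 0.719 and 1.72 CPM in combined tumours (log2 fold change -4.09 ± 0.84 (SE), adjusted p = 0.0126). Neither Lbx1, Msc nor Met overlapped between groups. Dropping each library in turn gave 2 to 8 higher (2 without combined N2, N3 or N4, 8 without SS18-SSX N381) and 1 to 3 lower (3 without combined N1).

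**Figure D2:**
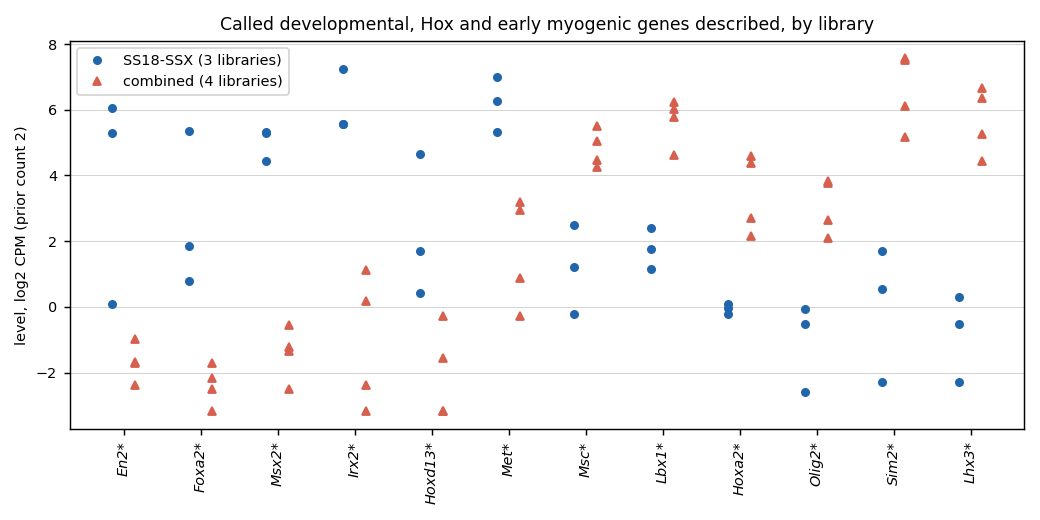
Level on a log2 CPM scale in each library of the called developmental, Hox and early myogenic genes that the text describes, ordered by log2 fold change (circles, 3 SS18-SSX libraries; triangles, 4 combined libraries). Lhx3 and Sim2 at the right have every combined library over every SS18-SSX library, and Msx2 and Irx2 at the left the reverse.

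The 12 protein coding genes with the largest rise and the 12 with the largest fall, among those with no overlap between groups, were named by a fixed rule, and most are described next. Myh13, an extraocular muscle myosin (chromosome 11, 67321658 to 67371586, GRCm38), was at 0.268, 0.189 and 0.236 CPM in SS18-SSX and 107, 46, 291 and 490.1 CPM in combined tumours (log2 fold change 9.95 ± 1.1 (SE), adjusted p = 0.00339). Ddc, which makes dopamine and serotonin, was at 0.697, 0.0472 and 0.236 CPM in SS18-SSX and 57.6, 47.7, 222 and 179 CPM in combined tumours (log2 fold change 8.61 ± 1.03 (SE), adjusted p = 0.0039). Cpa1, a pancreatic carboxypeptidase, was at 0, 0.0472 and 0.550 CPM in SS18-SSX and 26.7, 22.1, 150.3 and 171 CPM in combined tumours (log2 fold change 8.70 ± 1.39 (SE), adjusted p = 0.00694). For these 3 genes every combined library was over every SS18-SSX library. Psca had no count in any SS18-SSX library and 1.94, 2.31, 2.4 and 3.18 CPM in combined libraries. Rtl3 was highest in N1 and N2, with 2.79, 0.189 and 0.668 CPM in SS18-SSX and 450.4, 256, 57.3 and 44.4 CPM in combined tumours. Others with the largest rise were Cpa4, the imprinted gene Magel2, Eno1b, a retrocopy that shares 85.2% of its 50-base stretches with other genes, and the Y-linked Eif2s3y, Ddx3y and Uty. Magel2 was at 0, 0.944 and 0 CPM in SS18-SSX and 104, 104, 2.08 and 2.91 CPM in combined tumours, highest in N1 and N2. Magel2 was not called without SS18-SSX N381 or N460 or combined N1 or N2, or with limma-voom (adjusted p = 0.0552 to 0.106). Limma-voom also did not call Ddx3y, Eif2s3y or Uty (adjusted p = 0.197 to 0.238). The gap between groups for Uty was narrow, with combined N1 at 0.228 CPM and SS18-SSX N381 at 0.215 CPM.

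Among the largest falls, Otof, the calcium sensor of hair cell synapses (chromosome 5, 30367062 to 30461932, GRCm38), was at 36.7, 26.9 and 95.7 CPM in SS18-SSX and 0.114, 0.0642, 0 and 0.0662 CPM in combined tumours (log2 fold change -9.53 ± 0.74 (SE), adjusted p = 0.00101). Cacnb2, a calcium channel subunit, was at 46.3, 25.8 and 24.5 CPM in SS18-SSX and 0.285, 0.128, 0.160 and 0.0662 CPM in combined tumours (log2 fold change -7.57 ± 0.54 (SE), adjusted p = 0.000837). Aldh1a2, which makes retinoic acid, was at 162, 10.8 and 264 CPM in SS18-SSX and 1.37, 0.706, 0.719 and 0.662 CPM in combined tumours (log2 fold change -7.37 ± 1.01 (SE), adjusted p = 0.00509). None of these 3 genes overlapped between groups. Snhg11, a small nucleolar RNA host gene, was at 267, 36.9 and 17.3 CPM in SS18-SSX and 0.228, 0.193, 0.160 and 0.132 CPM in combined tumours (log2 fold change -9.16 ± 1.12 (SE), adjusted p = 0.00399). The others were Art4, Wipf3, Myocd, Ttc6, Lmo3, Dok5, Nrip2 and the pioneer factor Foxa1, whose SS18-SSX levels differed widely between libraries (70.9, 8.12 and 1.06 CPM for Foxa1). Foxa1 was not called with limma-voom (adjusted p = 0.0636). Ttc6 was not called with limma-voom (adjusted p = 0.101). Lmo3 was not called with limma-voom (adjusted p = 0.0723). Without SS18-SSX N381 the log2 fold changes of Art4 and Myocd were -6.02 and -5.77 instead of -9.63 and -9.10. Art4 was not called with limma-voom (adjusted p = 0.0641). DESeq2 gave no adjusted p for Myocd, Dok5 or Art4.

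**Figure D3:**
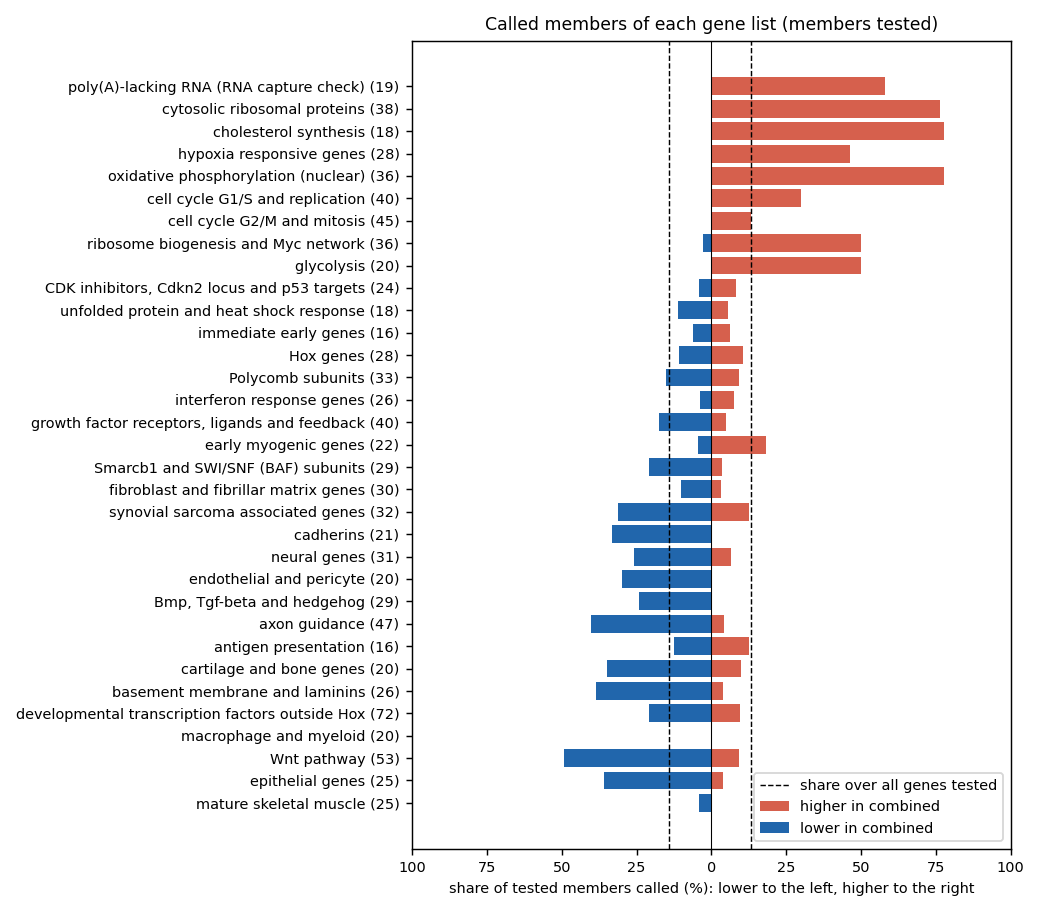
Share of tested members called higher (right) or lower (left) in combined tumours for each gene list with at least 10 members tested, ordered by median log2 fold change, with the number tested in brackets. The dashed lines mark the 13.1% higher and 14.3% lower over all genes; Wnt, axon guidance and basement membrane genes extend to the left, and ribosomal, respiratory chain and cholesterol genes to the right.

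Wnt ligands bind Frizzled receptors with Lrp co-receptors, and beta-catenin then drives target genes, several of which encode feedback inhibitors. Of 53 Wnt pathway genes tested, 26 were lower in combined tumours (49.1%) and 5 higher (9.4%), with a median log2 fold change of -1.73 against -0.13 over all genes. By role, 11 of 17 receptors and co-receptors, 6 of 11 secreted inhibitors, 6 of 11 target genes, 1 of 12 ligands and both tested R-spondins were lower, and 1 receptor, 2 ligands and 2 target genes were higher.

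Among receptors, Lgr6, a receptor for R-spondins, was at 128, 219 and 108 CPM in SS18-SSX and 11, 11.9, 6.23 and 4.17 CPM in combined tumours (log2 fold change -4.18 ± 0.44 (SE), adjusted p = 0.00312). Ror2, a receptor for Wnt5a, was at 46.4, 47.2 and 106 CPM in SS18-SSX and 4.84, 4.04, 2.0 and 4.57 CPM in combined tumours (log2 fold change -4.10 ± 0.44 (SE), adjusted p = 0.00333). Fzd1 was at 685, 2736 and 784 CPM in SS18-SSX and 105, 149, 20.8 and 19.5 CPM in combined tumours (log2 fold change -4.25 ± 0.90 (SE), adjusted p = 0.0138). None of these receptors overlapped between groups, and N3 and N4 had the lowest Fzd1. Fzd6, Fzd8 and Ror1 fell by 3.13, 2.86 and 3.86 on the log2 scale, also without overlap. Fzd5 fell by 2.85, or by 1.84 without SS18-SSX N428. Fzd2 was the 1 receptor that rose, with 29.2, 64 and 33.3 CPM in SS18-SSX and 128, 114, 111 and 103 CPM in combined tumours (log2 fold change 1.44 ± 0.30 (SE), adjusted p = 0.0139).

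Among secreted inhibitors, Dkk3 was at 63.7, 116 and 41.3 CPM in SS18-SSX and 4.73, 3.47, 1.92 and 1.72 CPM in combined tumours (log2 fold change -4.63 ± 0.51 (SE), adjusted p = 0.00337). Wif1, which binds Wnt ligands, fell by 5.62 on the log2 scale, or by 2.84 without SS18-SSX N428, where it was at 211 CPM. DESeq2 gave no adjusted p for Wif1. Wif1 was not called with limma-voom (adjusted p = 0.0925). Notum, an enzyme that inactivates Wnt proteins, was at 7.46, 1.98 and 20.7 CPM in SS18-SSX and 1.03, 0.513, 0.0799 and 0.132 CPM in combined tumours (log2 fold change -4.47 ± 1.04 (SE), adjusted p = 0.0187). Notum was not called without SS18-SSX N460 or combined N4 (adjusted p = 0.0506 to 0.0534). Of the ligands, Wnt6 was at 27.2, 30.2 and 31.9 CPM in SS18-SSX and 99.1, 110.4, 91.1 and 95 CPM in combined tumours (log2 fold change 1.73 ± 0.19 (SE), adjusted p = 0.00339), and Wnt10a was at 18.5, 6.94 and 12.3 CPM and 41.5, 34.4, 51 and 45.1 CPM (log2 fold change 1.78 ± 0.36 (SE), adjusted p = 0.0124). The values of Wnt6 were close together within each group and apart between them. Wnt5a, a ligand of the beta-catenin independent branch, was lower (log2 fold change -2.56 ± 0.63 (SE), adjusted p = 0.022). Wnt5a was not called without SS18-SSX N381 or N460 or combined N4 (adjusted p = 0.0504 to 0.0643).

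The target genes split. Lef1, the transcription factor partner of beta-catenin and itself a target, was at 82.7, 174 and 145 CPM in SS18-SSX and 29, 17.1, 24.1 and 21.4 CPM in combined tumours (log2 fold change -2.55 ± 0.31 (SE), adjusted p = 0.00399). Apcdd1, a membrane inhibitor induced by Wnt, fell by 4.37, or by 2.22 without SS18-SSX N460, where it was at 3216 CPM. Axin2, the most general feedback target, was at 276, 97.1 and 187 CPM in SS18-SSX and 103, 47.5, 54.3 and 69.3 CPM in combined tumours; the groups overlapped, since N1 reached into the SS18-SSX range (log2 fold change -1.45 ± 0.39 (SE), adjusted p = 0.0302). Myc, a growth regulator with many inputs besides Wnt, was at 9.44, 12 and 8.76 CPM in SS18-SSX and 29.7, 35.6, 44.4 and 46.5 CPM in combined tumours (log2 fold change 1.96 ± 0.28 (SE), adjusted p = 0.00552). Nkd1, a feedback inhibitor, rose (log2 fold change 2.07 ± 0.52 (SE), adjusted p = 0.0232) while its paralog Nkd2 fell (log2 fold change -4.73 ± 1.08 (SE), adjusted p = 0.0175). Nkd2 overlapped between groups, with combined N1 at 3.7 CPM and SS18-SSX N428 at 3.3 CPM. Axin2 was not called without SS18-SSX N381 or N460 or combined N2, N3 or N4 (adjusted p = 0.0621 to 0.0875). Nkd1 was not called without SS18-SSX N381 or N428 or combined N3 or N4 (adjusted p = 0.054 to 0.0659). Nkd2 was not called without combined N4, or with limma-voom (adjusted p = 0.0546 to 0.158). Without SS18-SSX N381 the fall of Nkd2 was 2.78 on the log2 scale. Lef1, Myc, Wnt6, Wnt10a, Lgr6, Ror2 and Dkk3 kept their calls in all of the fits. With 1 library left out, there were 4 to 6 higher and 13 to 28 lower (13 without combined N4, 17 without SS18-SSX N460). With the length trend taken out, 24 were lower and 5 higher.

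**Figure D4:**
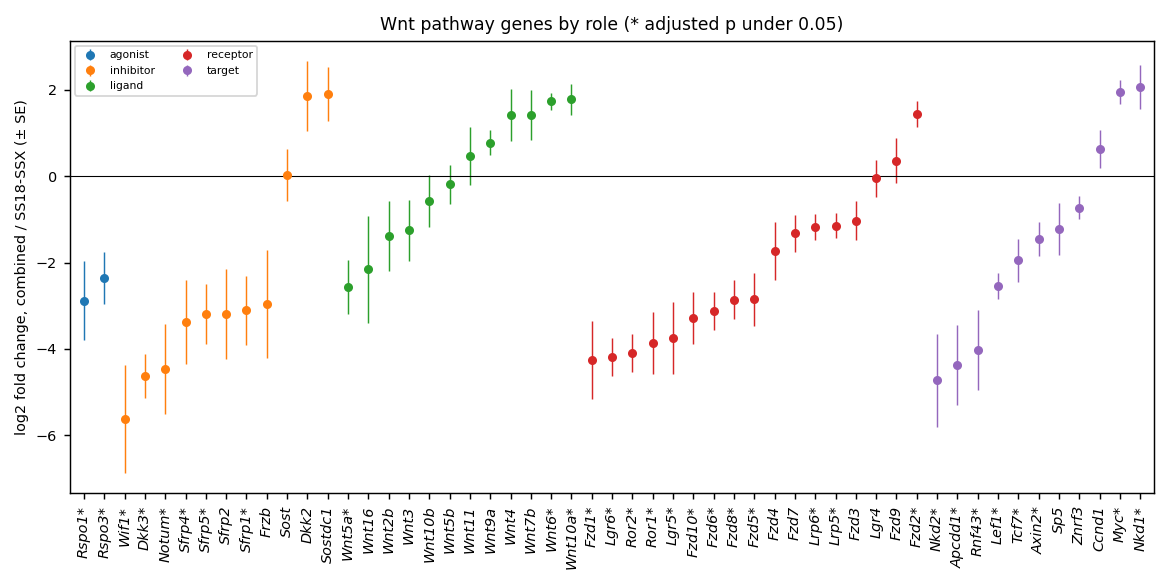
Log2 fold change of combined over SS18-SSX tumours, with SE, for 53 Wnt pathway genes grouped by role (star, adjusted p below 0.05). Most receptors and secreted inhibitors lie below 0, for example Wif1 at -5.62 and Lgr6 at -4.18, while Wnt6, Wnt10a, Myc and Nkd1 lie above it.

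The lists of guidance, matrix and adhesion genes held more lower than higher members. For axon guidance, basement membrane and cadherin genes, the median log2 fold changes were -1.30, -1.38 and -0.82. With the exon length trend taken out they were -0.89, -1.06 and -0.47. That fit called 17, 10 and 6 members lower and 2, 3 and 0 higher. Of 47 axon guidance genes, 19 were lower (40.4%) and 2 higher (4.3%), with a median of -1.30. Plxna4, a semaphorin receptor, was at 197, 359 and 225 CPM in SS18-SSX and 31.8, 11.9, 9.42 and 7.75 CPM in combined tumours (log2 fold change -4.10 ± 0.54 (SE), adjusted p = 0.00457). Robo2, a receptor for Slit proteins, was at 86.5, 68.5 and 43.3 CPM in SS18-SSX and 8.48, 6.93, 0.319 and 0.993 CPM in combined tumours (log2 fold change -3.97 ± 0.94 (SE), adjusted p = 0.0194). Epha5, Ntn4 and Sema5a fell by 4.93, 4.55 and 3.50 on the log2 scale. Epha7 went the other way, with 18.1, 10.5 and 22.2 CPM in SS18-SSX and 57.8, 109, 48.2 and 52 CPM in combined tumours (log2 fold change 1.98 ± 0.40 (SE), adjusted p = 0.0121). Epha5 was not called with limma-voom (adjusted p = 0.0604). Leaving out 1 library gave 1 to 2 higher (1 without combined N4) and 11 to 20 lower (11 without combined N4).

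Of 26 basement membrane genes, 10 were lower (38.5%) and 1 higher (3.8%), with a median of -1.38. Fras1, which joins epithelium to the matrix below it, was at 42.6, 125 and 56.9 CPM in SS18-SSX and 4.16, 3.47, 1.44 and 1.79 CPM in combined tumours (log2 fold change -4.78 ± 0.54 (SE), adjusted p = 0.00339). Lama2, the laminin chain of muscle and nerve, fell by 3.76 on the log2 scale. Fits without 1 library gave 0 to 2 higher (0 without SS18-SSX N381 or N428 or combined N4, 2 without SS18-SSX N460) and 8 to 11 lower.

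Cadherins gave 7 lower and 0 higher of 21 (33.3% and 0%). Cdh2, N-cadherin, was at 52.1, 106 and 19.9 CPM in SS18-SSX and 10.1, 10.3, 5.43 and 6.09 CPM in combined tumours (log2 fold change -2.89 ± 0.54 (SE), adjusted p = 0.0104). Fat3, Fat4, Cdh6 and Cdh13 fell by 5.20, 2.83, 4.73 and 2.72. Without 1 library at a time, 0 to 1 higher (1 without SS18-SSX N460) and 6 to 7 lower genes were called.

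Synovial sarcoma can form gland-like epithelial structures. Of 25 epithelial genes, 9 were lower (36%) and 1 higher (4%), with a median of -1.87. Cdh3, P-cadherin, was at 67.4, 39.8 and 94.9 CPM in SS18-SSX and 8.26, 4.49, 4.31 and 3.71 CPM in combined tumours (log2 fold change -3.69 ± 0.41 (SE), adjusted p = 0.00339). St14, the membrane protease matriptase, and Spint1, its inhibitor, both fell, with St14 at 24.5, 37.4 and 64.7 CPM in SS18-SSX and 4.44, 2.44, 0.319 and 0.530 CPM in combined tumours (log2 fold change -4.43 ± 0.86 (SE), adjusted p = 0.011). Spint1 was at 26.1, 13.4 and 17.1 CPM in SS18-SSX and 3.76, 3.21, 0.878 and 1.06 CPM in combined tumours (log2 fold change -3.07 ± 0.60 (SE), adjusted p = 0.0113). N3 and N4 had the lowest St14 and Spint1. The epithelial master regulator Grhl2 was lower (log2 fold change -3.92 ± 1.08 (SE), adjusted p = 0.0312). Grhl2 was not called without SS18-SSX N381 or N460 or combined N2 or N4 (adjusted p = 0.0619 to 0.0772). The tight junction gene Cldn6, which is expressed in embryonic epithelia, was at 2.63, 1.32 and 2.12 CPM in SS18-SSX and 13.4, 8.47, 8.39 and 9.54 CPM in combined tumours (log2 fold change 2.30 ± 0.44 (SE), adjusted p = 0.0111). Removing single libraries gave 1 to 2 higher (2 without SS18-SSX N381 or N428) and 3 to 10 lower (3 without combined N4, 4 without SS18-SSX N381).

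Skeletal and Bmp genes followed. Of 20 cartilage and bone genes, 7 were lower (35%) and 2 higher (10%). Sox5 and Sox6, partners of Sox9 in cartilage, were at 19.7, 20.2 and 12 CPM and 106, 57 and 54.1 CPM in SS18-SSX, and at 0.854, 1.22, 0.240 and 0.199 CPM and 8.31, 2.95, 0.160 and 0.530 CPM in combined tumours (log2 fold change -4.75 ± 0.69 (SE), adjusted p = 0.00583 and log2 fold change -4.58 ± 1.05 (SE), adjusted p = 0.0179). Of 29 Bmp, Tgf-beta and hedgehog genes, 7 were lower (24.1%) and 0 higher. Id4, a target of Bmp signals, was at 32.5, 50.7 and 121 CPM in SS18-SSX and 1.31, 3.47, 0.559 and 0.662 CPM in combined tumours (log2 fold change -5.49 ± 0.76 (SE), adjusted p = 0.00531). Neural genes gave 8 lower and 2 higher of 31 (25.8% and 6.5%). Map2, a microtubule protein of neurons, was at 101, 144 and 72 CPM in SS18-SSX and 7.97, 4.17, 1.44 and 2.72 CPM in combined tumours (log2 fold change -4.69 ± 0.57 (SE), adjusted p = 0.00399). Sox5, Sox6, Id4 and Map2 each had every combined library under every SS18-SSX library. For cartilage and bone, when 1 library was dropped, the counts were 1 to 2 higher (1 without SS18-SSX N381 or N460 or combined N1, N3 or N4) and 6 to 7 lower. For the Bmp list, dropping each library in turn gave 0 to 1 higher (1 without SS18-SSX N460) and 3 to 10 lower (3 without combined N3 or N4, 4 without SS18-SSX N381 or combined N2). For the neural list, with 1 library left out, there were 1 higher and 3 to 9 lower (3 without combined N4, 5 without SS18-SSX N381).

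Gene lists with more members higher than the 13.1% over all genes included several metabolic ones. Cells short of oxygen stabilise the factor Hif1a, which binds the core sequence ACGTG and raises genes for glycolysis, lactate export and lower mitochondrial use of pyruvate. Of 28 hypoxia responsive genes, 13 were higher in combined tumours (46.4%) and 0 lower, with a median of 1.42. Of 20 genes of glycolysis and lactate transport, 10 were higher (50%) and 0 lower, with a median of 1.12.

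Ankrd37 was at 2.36, 9.62 and 1.26 CPM in SS18-SSX and 57.5, 50.8, 42.7 and 38.9 CPM in combined tumours (log2 fold change 3.43 ± 0.69 (SE), adjusted p = 0.012). Egln3, an oxygen-sensing prolyl hydroxylase, was at 14.7, 9.58 and 9.23 CPM in SS18-SSX and 97.8, 75.3, 36.7 and 40.9 CPM in combined tumours (log2 fold change 2.49 ± 0.43 (SE), adjusted p = 0.00822). Pdk1, the kinase that shuts pyruvate out of the mitochondrial cycle, was at 69.4, 114 and 96.1 CPM in SS18-SSX and 349, 247, 366 and 328 CPM in combined tumours (log2 fold change 1.79 ± 0.27 (SE), adjusted p = 0.00596). For all 3 genes every combined library was over every SS18-SSX library. Bnip3, a mitophagy receptor, and Higd1a, a respiratory chain assembly factor, rose by 2.13 and 2.07 on the log2 scale. Not every hypoxia gene rose. Vegfa, the best known target, was at 143, 126 and 159 CPM in SS18-SSX and 233, 99.8, 75.7 and 105 CPM in combined tumours, and the groups overlapped (log2 fold change -0.15 ± 0.38 (SE), adjusted p = 0.773). Car9 stayed at low counts, with 0.751, 1.84 and 2.95 CPM and 5.12, 2.18, 1.04 and 1.52 CPM (log2 fold change 0.42 ± 0.71 (SE), adjusted p = 0.676). Adm was higher (log2 fold change 2.10 ± 0.52 (SE), adjusted p = 0.0222), as was Ddit4 (log2 fold change 2.04 ± 0.51 (SE), adjusted p = 0.0228). Adm was not called without SS18-SSX N381 or combined N3 or N4 (adjusted p = 0.0542 to 0.0583). Ddit4 was not called without SS18-SSX N381 or N460 or combined N2 (adjusted p = 0.0508 to 0.0591). Leaving out 1 library gave 8 to 13 higher (8 without SS18-SSX N381 or combined N4) and 0 to 1 lower (1 without SS18-SSX N460).

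Slc16a3, the lactate exporter Mct4, was at 8.37, 27.3 and 3.73 CPM in SS18-SSX and 179, 93.3, 182 and 173 CPM in combined tumours (log2 fold change 3.58 ± 0.68 (SE), adjusted p = 0.0108). Slc16a1, the lactate carrier Mct1, was at 21.5, 53.6 and 35.2 CPM in SS18-SSX and 177, 229, 391 and 349 CPM in combined tumours (log2 fold change 2.96 ± 0.43 (SE), adjusted p = 0.00574). Ldha, which turns pyruvate into lactate, was at 113, 156 and 153 CPM in SS18-SSX and 1092, 1118, 1578 and 1287 CPM in combined tumours (log2 fold change 3.18 ± 0.33 (SE), adjusted p = 0.00312). These groups were apart, with the highest SS18-SSX library under the lowest combined one. Pgk1 was at 2.63, 2.93 and 2.63 CPM in SS18-SSX and 73.6, 40.2, 50.6 and 52.6 CPM in combined tumours (log2 fold change 4.31 ± 0.31 (SE), adjusted p = 0.000837). Of the 50-base stretches of Pgk1, 53.9% also occur in another gene, and of those of Pgam1 36.2%, so reads of these genes may have been lost or split in counting. Slc2a1, the glucose transporter Glut1, chosen after its values were seen, was at 22.4, 30.6 and 22.9 CPM in SS18-SSX and 124, 55.8, 66.2 and 69 CPM in combined tumours (log2 fold change 1.64 ± 0.33 (SE), adjusted p = 0.0118). Among members with under 5% shared stretches, 4 of 11 glycolysis genes and 9 of 24 hypoxia genes were higher, against 11% of all such genes. Sharing itself went with the groups over all genes tested. Of genes with 5% or more shared stretches, 26.4% were higher and 7.31% lower, against 11% and 15.3% of those with less. Of processed pseudogenes, 41.4% were higher and 2.61% lower. Other named genes that were higher also had shared stretches: Bmi1 16.7%, Bnip3 16.5%, Hoxa2 12.7%, Ldha 9%, Myh13 8.3% and Higd1a 5%. Nrip2, which was lower, had 13.5%. What this contributes to the rise of genes with shared stretches was not tested. Fits without 1 library gave 7 to 11 higher and 0 to 1 lower (1 without SS18-SSX N460 or combined N1).

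**Figure D5:**
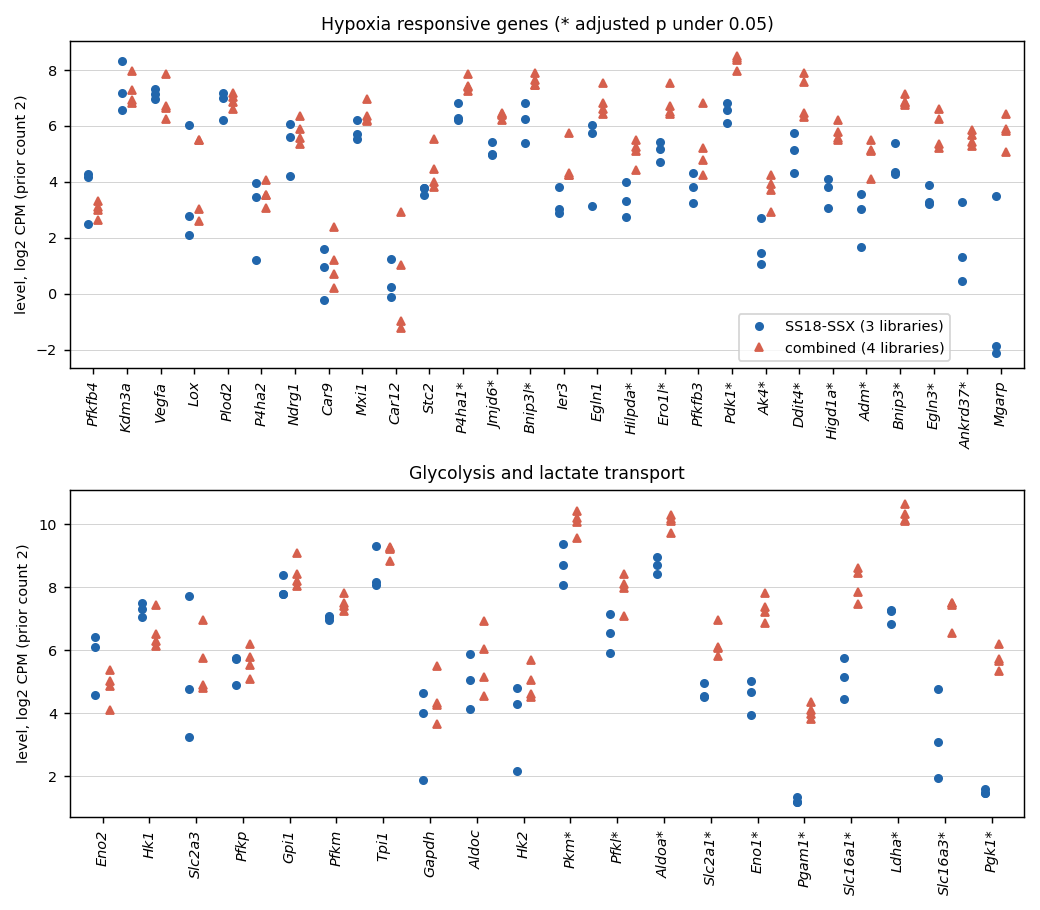
Level on a log2 CPM scale in each library of 28 hypoxia responsive genes (top) and 20 genes of glycolysis and lactate transport (bottom), ordered by log2 fold change (circles, 3 SS18-SSX libraries; triangles, 4 combined libraries; star, adjusted p below 0.05). Ankrd37, Pgk1, Slc16a3 and Ldha at the right have every combined library over every SS18-SSX library, and Vegfa at the left overlaps.

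The 3 called members of these lists with the largest fold were Pgk1, Slc16a3 and Ankrd37. Their promoter windows, shown because Hif1a is known to act through ACGTG, are from RefSeq (GRCm38.p6, 300 bases each, most of them before the start, 5′ to 3′ on the gene's strand). Capitals mark ACGTG or CACGT, the same letters read on the other strand, and each window held 2 matches.
Pgk1, chrX:106186850-106187149, plus strand: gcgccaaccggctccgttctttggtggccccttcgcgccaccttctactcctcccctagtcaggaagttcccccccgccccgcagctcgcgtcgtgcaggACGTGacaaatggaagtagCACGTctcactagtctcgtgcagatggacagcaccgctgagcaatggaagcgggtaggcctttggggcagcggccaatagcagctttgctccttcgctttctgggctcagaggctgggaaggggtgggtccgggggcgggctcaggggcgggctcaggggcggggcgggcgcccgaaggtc
Slc16a3, chr11:120948817-120949116, plus strand: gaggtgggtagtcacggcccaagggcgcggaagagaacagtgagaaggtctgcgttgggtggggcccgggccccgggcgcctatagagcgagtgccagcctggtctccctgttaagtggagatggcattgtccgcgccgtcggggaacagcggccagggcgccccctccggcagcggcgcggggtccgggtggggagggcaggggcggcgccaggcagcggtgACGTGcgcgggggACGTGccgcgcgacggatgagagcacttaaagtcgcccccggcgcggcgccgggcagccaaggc
Ankrd37, chr8:45999801-46000100, minus strand: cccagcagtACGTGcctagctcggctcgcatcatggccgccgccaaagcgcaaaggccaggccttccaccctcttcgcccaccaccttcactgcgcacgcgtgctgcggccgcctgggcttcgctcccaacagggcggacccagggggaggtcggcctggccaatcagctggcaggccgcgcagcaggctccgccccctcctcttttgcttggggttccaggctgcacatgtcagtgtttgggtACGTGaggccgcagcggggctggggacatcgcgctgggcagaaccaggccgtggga

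ACGTG on either strand, which is also part of the E-box CACGTG bound by Myc, occurred in 13 of the 21 called hypoxia or glycolysis members with a window in the table (61.9%). It occurred in 19.6% of all 32851 windows of this length and in 25.2% of 11524 windows of genes tested. Members of these lists that were not called were not counted, so these shares do not set called members apart from their lists. A match of letters is a description of the sequence and not a binding site.

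Most sterol genes rose in combined tumours. Of 18 cholesterol synthesis and uptake genes, 14 were higher (77.8%) and 0 lower, with a median of 1.77. All 18 had a positive log2 fold change, against 7475 of the 16456 genes tested. Msmo1, a sterol demethylation enzyme, was at 14.1, 23.3 and 17.1 CPM in SS18-SSX and 55.3, 87.2, 142 and 85.3 CPM in combined tumours (log2 fold change 2.35 ± 0.37 (SE), adjusted p = 0.00667). The groups did not overlap, and combined N3 was the highest library. Among members with under 5% shared stretches 11 of 15 were higher. Without 1 library at a time, 9 to 14 higher (9 without combined N4) and 0 lower genes were called.

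Of 36 nuclear genes of the respiratory chain, 28 were higher (77.8%) and 0 lower, with a median of 1.33. Uqcrq, a subunit of complex III, was at 10.8, 17.8 and 16.5 CPM in SS18-SSX and 59.5, 129, 219 and 143 CPM in combined tumours (log2 fold change 3.19 ± 0.46 (SE), adjusted p = 0.00565). Cox5a, a subunit of complex IV, was at 15, 27.8 and 17.2 CPM in SS18-SSX and 62.4, 98.6, 184 and 130.2 CPM in combined tumours (log2 fold change 2.57 ± 0.42 (SE), adjusted p = 0.0073). In both genes N1 was the lowest combined library and N3 the highest. Ndufa2, of complex I, rose by 2.86 on the log2 scale, or by 1.56 with the length trend taken out. With that trend out the list gave 27 higher. Removing single libraries gave 16 to 30 higher (16 without SS18-SSX N381 or combined N4, 17 without combined N3) and 0 lower. The 9 mitochondrial genome genes tested gave 0 higher and 0 lower, but 3 were lower with the length trend taken out and 2 without SS18-SSX N428. Their levels were 36830, 8861 and 20700 CPM summed in SS18-SSX and 19510, 48450, 18280 and 16620 CPM in combined libraries.

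Cytosolic ribosomal protein genes gave 29 higher of 38 (76.3%) and 0 lower, with a median of 2.11. These are short genes with many processed copies: 5 of the 38 had under 5% of stretches shared, and all 5 were higher. Summed levels were 2766, 6421 and 5262 CPM in SS18-SSX and 10860, 18290, 26190 and 18060 CPM in combined libraries. When 1 library was dropped, the counts were 18 to 31 higher (18 without combined N4, 19 without combined N3) and 0 lower.

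Of 36 genes of ribosome biogenesis and the Myc network, 18 were higher (50%) and 1 lower (2.8%), with a median of 1.18. Gnl3 (nucleostemin) was at 29.9, 46.7 and 42.1 CPM in SS18-SSX and 98.8, 175, 254 and 193 CPM in combined tumours (log2 fold change 2.19 ± 0.35 (SE), adjusted p = 0.00694). Tfrc, the transferrin receptor and a Myc target, was at 28.3, 87.9 and 28.1 CPM in SS18-SSX and 475, 498, 248 and 192 CPM in combined tumours (log2 fold change 2.88 ± 0.57 (SE), adjusted p = 0.0116). Tfrc was higher in N1 and N2, and Gnl3 in N3 and N4. The 1 member that was lower was Mxd1, an antagonist of Myc (log2 fold change -1.14 ± 0.34 (SE), adjusted p = 0.0393). Mxd1 was not called without SS18-SSX N381 or N428 or combined N2, N3 or N4, or with no low-count filter, or with the exon length trend taken out (adjusted p = 0.0554 to 0.106). Dropping each library in turn gave 7 to 21 higher (7 without combined N4, 10 without SS18-SSX N381 or combined N3, 11 without SS18-SSX N460) and 0 to 1 lower (0 without SS18-SSX N428 or combined N2, N3 or N4).

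Most cell cycle genes had a positive log2 fold change and a minority passed the test. Of 40 genes of G1/S and replication, 12 were higher (30%) and 0 lower, with a median of 1.31. All 40 had a positive log2 fold change, against 7475 of the 16456 genes tested. Of 45 genes of G2/M and mitosis, 6 were higher (13.3%, close to the 13.1% over all genes) and 0 lower, with a median of 1.28. Of these 45, 44 had a positive log2 fold change. Every combined library was over every SS18-SSX library for 24 of the 45 and for 11 of the 40 G1/S genes, against 19.3% of all genes tested. Tk1, thymidine kinase, was at 3.16, 7.74 and 12.8 CPM in SS18-SSX and 34.3, 47.4, 118 and 83.5 CPM in combined tumours (log2 fold change 3.16 ± 0.61 (SE), adjusted p = 0.0111). Rfc4, a clamp loader subunit, was at 4.56, 13.2 and 17.2 CPM in SS18-SSX and 30.8, 60.1, 92.5 and 56.7 CPM in combined tumours (log2 fold change 2.36 ± 0.53 (SE), adjusted p = 0.017). Cenpa, the centromeric histone, was at 9.28, 35 and 20 CPM in SS18-SSX and 71.4, 102, 239 and 155 CPM in combined tumours (log2 fold change 2.73 ± 0.57 (SE), adjusted p = 0.0134). In each of these SS18-SSX N381 was lowest and combined N3 highest. Cdk1, the mitotic kinase, rose from 5.04, 46.9 and 54.9 CPM to 118, 169, 367 and 254 CPM (log2 fold change 2.67 ± 0.77 (SE), adjusted p = 0.0367). Cdk1 was not called without SS18-SSX N428 or N460 or combined N2, N3 or N4 (adjusted p = 0.0542 to 0.0809). Mki67, a marker of cycling cells chosen after its values were seen, was at 119, 444 and 604 CPM in SS18-SSX and 710, 338, 570.4 and 763 CPM in combined tumours, and the groups overlapped (log2 fold change 0.61 ± 0.54 (SE), adjusted p = 0.407). For G1/S, with 1 library left out, there were 2 to 28 higher (2 without SS18-SSX N428 or combined N4, 3 without combined N3, 4 without SS18-SSX N381 or combined N2, 28 without SS18-SSX N460) and 0 lower. For G2/M, leaving out 1 library gave 1 to 7 higher (1 without SS18-SSX N428 or combined N2, N3 or N4, 3 without SS18-SSX N460) and 0 lower. DESeq2 called 24 and 11 members higher.

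The called cell cycle members with the largest fold and a window were Tk1, Cenpa and Cdk1. Mitotic promoters are known for CCAAT boxes and for the cell cycle homology region TTTGAA, so capitals mark CCAAT or ATTGG and TTTGAA or TTCAAA in the RefSeq windows (GRCm38.p6). Cenpa held 2 CCAAT matches and 1 TTTGAA match, Cdk1 held 3 and 2, and Tk1 held 0 of both.
Tk1, chr11:117825965-117826264, minus strand: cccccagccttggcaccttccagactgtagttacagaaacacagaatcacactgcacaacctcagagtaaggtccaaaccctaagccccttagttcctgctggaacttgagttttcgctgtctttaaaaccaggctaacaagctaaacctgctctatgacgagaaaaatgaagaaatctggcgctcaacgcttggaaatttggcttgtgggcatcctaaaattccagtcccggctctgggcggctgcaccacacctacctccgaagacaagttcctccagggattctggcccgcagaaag
Cenpa, chr5:30666636-30666935, plus strand: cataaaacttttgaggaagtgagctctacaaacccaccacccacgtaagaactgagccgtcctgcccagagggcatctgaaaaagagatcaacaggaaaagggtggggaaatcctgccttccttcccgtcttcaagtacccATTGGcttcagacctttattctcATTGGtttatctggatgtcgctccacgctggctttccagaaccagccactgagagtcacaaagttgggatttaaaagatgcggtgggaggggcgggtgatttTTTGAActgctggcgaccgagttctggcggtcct
Cdk1, chr10:69352863-69353162, minus strand: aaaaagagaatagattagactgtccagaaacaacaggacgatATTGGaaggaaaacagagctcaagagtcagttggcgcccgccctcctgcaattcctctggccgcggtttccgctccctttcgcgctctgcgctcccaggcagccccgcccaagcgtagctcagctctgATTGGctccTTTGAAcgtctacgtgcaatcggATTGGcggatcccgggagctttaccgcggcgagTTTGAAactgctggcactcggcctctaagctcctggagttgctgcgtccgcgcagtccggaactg

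CCAAT on either strand occurred in 37.4% of all windows, in 38.5% of windows of genes tested and in 8 of 16 called cell cycle members. TTTGAA occurred in 17.9%, 11.7% and 5 of 16 in the same order. As before, list members that were not called were not counted, and a match is only a description of the letters.

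Of 24 CDK inhibitors, Cdkn2 locus genes and p53 targets, 2 were higher and 1 lower (8.3% and 4.2%). Cdkn2a, which encodes p16 and p19Arf and is a known target of SWI/SNF in rhabdoid tumours, was at 4.61, 4.81 and 18.5 CPM in SS18-SSX and 8.03, 8.28, 10.1 and 11.2 CPM in combined tumours, with overlapping groups (log2 fold change 0.01 ± 0.55 (SE), adjusted p = 0.992). The imprinted inhibitor Cdkn1c was higher (log2 fold change 1.45 ± 0.39 (SE), adjusted p = 0.0286). Cdkn1c was not called without SS18-SSX N381 or N428 or combined N3 or N4, or with the exon length trend taken out (adjusted p = 0.051 to 0.0807). Fits without 1 library gave 0 to 3 higher (0 without SS18-SSX N381 or combined N3 or N4, 1 without SS18-SSX N460 or combined N2) and 0 to 1 lower (0 without SS18-SSX N381 or N428 or combined N2, N3 or N4).

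Of 40 growth factor receptor, ligand and feedback genes, 7 were lower (17.5%) and 2 higher (5%). Igf1r, the receptor for Igf1 and Igf2, was at 118, 26.4 and 94.4 CPM in SS18-SSX and 888, 393, 316 and 465 CPM in combined tumours (log2 fold change 2.69 ± 0.60 (SE), adjusted p = 0.016). Kit, the receptor for stem cell factor, was at 21.5, 40 and 15.6 CPM in SS18-SSX and 5.12, 5.33, 3.27 and 4.37 CPM in combined tumours (log2 fold change -2.50 ± 0.40 (SE), adjusted p = 0.00694). Neither gene overlapped between groups. Without 1 library at a time, 1 to 3 higher (1 without SS18-SSX N460 or combined N4) and 2 to 8 lower (2 without SS18-SSX N460 or combined N3 or N4, 3 without combined N2) genes were called.

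Of 26 interferon response genes, 2 were higher (7.7%) and 1 lower (3.8%), against 13.1% and 14.3% over all genes; DESeq2 called 5 higher. Of 16 antigen presentation genes, 2 were higher and 2 lower (12.5% each), close to the shares over all genes. Bst2 (tetherin) was at 17.9, 9.86 and 5.11 CPM in SS18-SSX and 96.8, 128, 68.2 and 94.8 CPM in combined tumours (log2 fold change 3.15 ± 0.46 (SE), adjusted p = 0.0059). Psmb8, an immunoproteasome subunit, was at 22.1, 16.5 and 5.54 CPM in SS18-SSX and 54.3, 71.6, 54.5 and 54 CPM in combined tumours (log2 fold change 1.99 ± 0.45 (SE), adjusted p = 0.0165). B2m, the light chain of MHC class I, went the other way, with 1634, 608 and 719.6 CPM in SS18-SSX and 357, 296, 164 and 196 CPM in combined tumours (log2 fold change -1.96 ± 0.44 (SE), adjusted p = 0.0171). All 3 were without overlap. B2m was not called without combined N4 (adjusted p = 0.0578). For interferon, removing single libraries gave 1 to 3 higher (1 without SS18-SSX N460 or combined N2, N3 or N4) and 0 to 1 lower (0 without SS18-SSX N381 or combined N1, N2, N3 or N4). For antigen presentation, when 1 library was dropped, the counts were 1 to 2 higher (1 without SS18-SSX N428 or N460 or combined N2, N3 or N4) and 0 to 2 lower (0 without combined N4, 1 without SS18-SSX N381 or combined N3).

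Markers of other cell types in the tumours were examined with the same fit. None of 20 macrophage and myeloid genes was called, 0 higher and 0 lower, and 3 had a positive log2 fold change; DESeq2 called 6 lower, and 4 were lower with the length trend taken out, and 10 were lower without SS18-SSX N460 while 2 were higher without N381. Their summed levels were 715, 992 and 149.5 CPM in SS18-SSX and 226, 404, 155 and 142 CPM in combined libraries, and Ptprc, the pan-leukocyte gene CD45, was at 65.2, 19.5 and 5.46 CPM and 6.38, 13.4, 5.75 and 5.56 CPM. Of 20 endothelial and pericyte genes, 6 were lower (30%) and 0 higher, among them the endothelial factor Erg, at 24.6, 11.4 and 22.4 CPM in SS18-SSX and 2.62, 2.44, 2.8 and 2.98 CPM in combined tumours (log2 fold change -2.84 ± 0.38 (SE), adjusted p = 0.00483). Dropping each library in turn gave 0 higher and 2 to 8 lower (2 without combined N1, N2 or N3, 3 without SS18-SSX N460 or combined N4). With limma-voom 2 were lower. Pecam1, a defining endothelial gene, was at 36, 65.2 and 172 CPM and 36, 46.3, 33.5 and 37.9 CPM and overlapped. Their summed levels were 780, 619 and 1717 CPM and 508, 489, 511 and 558 CPM. Red blood cell genes rose, 5 of 7, with Hbb-bs at 15.8, 11 and 29.8 CPM in SS18-SSX and 128, 159.8, 1075 and 848 CPM in combined tumours (log2 fold change 4.87 ± 0.95 (SE), adjusted p = 0.0111). Globin levels were highest in N3 and N4, and 53.2% of the 50-base stretches of Hbb-bs occur in another gene. With 1 library left out, there were 2 to 5 higher (2 without SS18-SSX N381 or combined N3 or N4, 3 without SS18-SSX N428) and 0 lower. With the length trend taken out, or with limma-voom, 3 of 7 were higher, and among members with under 5% shared stretches 1 of 3 was, with a median of 0.97 against 3.59 for all 7. Fibroblast and fibrillar matrix genes gave 1 higher and 3 lower of 30 (3.3% and 10%), with summed levels of 11360, 2360 and 15890 CPM and 7922, 11090, 3701 and 4093 CPM. Leaving out 1 library gave 0 to 3 higher (0 without SS18-SSX N460 or combined N3 or N4, 3 without SS18-SSX N381) and 0 to 7 lower (0 without SS18-SSX N381 or combined N3 or N4, 1 without SS18-SSX N460 or combined N2, 7 without SS18-SSX N428). DESeq2 called 6 lower and limma-voom 1. Of 25 mature muscle genes, 1 was lower, Tpm1, and 0 higher, while 8 were higher without SS18-SSX N381. Acta1, skeletal actin, showed how far that library reached, with 834, 0.613 and 0.314 CPM in SS18-SSX and 34.3, 58.6, 6.79 and 1.06 CPM in combined tumours. Of the Schwann cell list 8 genes were tested and 1 was lower, a call lost with limma-voom and without SS18-SSX N381 or N460 or combined N2, N3 or N4. Of the adipocyte list 4 were tested with none called, and 2 of 3 were lower without combined N2. Adipocyte genes summed to 289, 90.8 and 56.2 CPM in SS18-SSX and 23.4, 679, 24.1 and 17.6 CPM in combined libraries, so N2 and SS18-SSX N381 stood apart. Ucp1, the uncoupling protein of brown fat, was under the filter with 1905 of its 1926 counts in N2. Of the skin list 7 were tested with 1 higher, lost without SS18-SSX N428 or combined N2, and of the T, NK and B cell list 4 with 2 lower, including Ighm, at 568, 0.755 and 1.73 CPM in SS18-SSX and 2.28, 2.05, 0.319 and 0.265 CPM in combined tumours, so high in SS18-SSX N381 alone. With limma-voom, or without SS18-SSX N381 or combined N2, N3 or N4, 0 of that list were lower, and without SS18-SSX N428 or combined N1 1 was. Ighm was not called without SS18-SSX N381 or combined N1, N2, N3 or N4, or with limma-voom (adjusted p = 0.0683 to 0.994). The part of other cell types in the gene groups above was not tested.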

How the data were processed

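RNA of 7 mouse tumours was analysed, and the other 15 libraries of the series were not used here. The authors deposited raw counts per gene; STAR 2.7.5a, RSEM, featureCounts, DESeq2 and cutadapt are listed, with mm10 as the build and no role or order, per the submitters' processing notes. Of 48440 gene IDs, 48058 matched GENCODE M21. Groups came from the titles. The filter was filterByExpr, with a minimum total of 15 and a minimum count of 10. The 16456 genes kept hold 99.75% of all counts. Combined libraries were compared with SS18-SSX libraries by edgeR 4.0.16 (R 4.3.3): TMM scaling, the quasi-likelihood test and Benjamini-Hochberg adjustment over all genes tested, called at an adjusted p below 0.05. Levels are TMM-scaled CPM, which are not scaled by length and so are not compared between genes, and log2 CPM has a prior count of 2. The SE of a fold change is its size divided by the square root of F. The fit was tested on simulated data.

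The members and gene lists were chosen with earlier results of these data known. Genes named are Smarcb1 and Ss18, the 12 with the largest non-overlapping fold each way, up to 5 called members of each list each way, members of the SWI/SNF, Polycomb, synovial sarcoma, Cdkn2, hypoxia and Wnt lists, and defining markers of other cell types. Slc2a1, Mki67 and Xist fall outside that rule and were chosen after their values were seen. Some genes that the rule covers are not reported here. Alternatives were RLE scaling, DESeq2 1.42.0, limma-voom (limma 3.58.1), no filter, a stricter filter (1 CPM in 3 libraries), leaving out poly(A)-lacking and mitochondrial RNA, and leaving out each library. Chosen after seeing the data were a fit with the exon length trend taken out and counts over genes with under 5% of their 50-base stretches in another gene. Promoter windows of 300 bases are from RefSeq.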

Additional observations from a re-analysis of the deposited data

Results flagged for a closer look

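Within the 4 combined libraries, 188 series of values were examined for 1 library far from the other three, and 11 had one. Chance would give this in about 1 in 20 such groups. N1 was the lowest library for the Y-linked genes Ddx3y (log2 CPM -0.14, next library 7.3), Eif2s3y (-1.83, next 6.78) and Uty (-1.56, next 6.44), and for Meox2 (5.31, next 7.88). N1 was the highest library for Aldh1a2 (0.56, next -0.27) and for Nrip2 (-2.15, next -3.17). N2 was the highest library for Psmb8 (6.16, next 5.77) and for the leukocyte gene Ptprc (3.76, next 2.7). N2 was also the highest for the mean over the Hox genes (1.81, next 0.35) and over the mitochondrial genome (9.67, next 8.6). For the lactate exporter Slc16a3, N2 was the lowest (6.55, next 7.43).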

How the results depend on the processing

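No paired analysis was possible because the 2 groups share no replicate number. Against 2152 higher and 2346 lower genes, the fits without 1 library gave 894 to 2453 higher and 1061 to 2429 lower, fewest without combined N4. Scaling by RLE gave 2189 and 2331, DESeq2 3010 and 3198, no filter 2087 and 2654, the stricter filter 2131 and 2319, and limma-voom 2121 and 2091. Leaving out poly(A)-lacking and mitochondrial RNA gave 2169 and 2338. Of 135 called genes named in the text, 115 kept the call in every fit with all libraries that gave an adjusted p. In the fits without 1 library, 104 kept it in every fit that tested them. A gene that the count filter left out of such a fit was not counted as lost. In all of these fits, 0 changed sign. The most, 29, were tested and not called without combined N4. Among the gene lists, DESeq2 called 25 developmental factors and 11 Bmp list genes lower, and 10 Wnt pathway, 6 CDK inhibitor list, 5 Hox, 5 Polycomb and 5 growth factor list genes higher. Limma-voom called 4 lower in the cartilage and bone list, 4 in the Bmp list and 1 among Hox genes. The 1 lower CDK inhibitor list gene was not called with RLE scaling, no filter or without poly(A)-lacking and mitochondrial RNA. With the length trend taken out, 3 basement membrane genes were higher.

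Genes that were not called changed sign in some fits, and the cause was not tested. With limma-voom the log2 fold change was 1.41 for Acta1 and 0.017 for Ezh2. With the exon length trend taken out it was 0.062 for Arid1a, -0.622 for Cdkn2a and 0.11 for Ezh2. Fits without 1 library gave -4.307 (without combined N2) to 5.751 (SS18-SSX N381) for Acta1, -0.22 (combined N1) to 0.937 (SS18-SSX N460) for Car9 and -0.322 (SS18-SSX N381) to 1.01 (SS18-SSX N460) for Cdkn2a. They gave -0.512 (SS18-SSX N381) to 0.413 (SS18-SSX N428) for Ezh2, -0.015 (SS18-SSX N381) to 0.206 (combined N2) for Smarca4, -0.147 (SS18-SSX N381) to 0.188 (SS18-SSX N460) for Ss18 and -0.614 (combined N1) to 0.039 (combined N3) for Vegfa. Total counts of 14834030 to 25177722 limit what can be said of genes with few counts, such as Myod1, with 59 over the 7 libraries.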
